A study of Mus musculus with 16 samples.

Results

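The urea cycle turns ammonia and aspartate nitrogen into urea in hepatocytes, and the glutamine enzymes release or store ammonia around it. The 10 genes described here are chosen by name from this system: the cycle enzymes Cps1, Otc, Ass1, Asl and Arg1, the activator enzyme Nags, the mitochondrial carriers Slc25a15 (ornithine) and Slc25a13 (aspartate and glutamate), glutaminase Gls2 and glutamine synthetase Glul. All 10 were found among the 51912 genes of the count table and passed the filter on low counts, which left 14920 genes to test. In liver, ammonia is captured first by periportal cells, which hold Gls2 and the cycle enzymes. The last row of cells around the central vein makes glutamine with Glul from ammonia that escaped. Fasting and dietary protein are both known to move the cycle enzymes, since amino acids used as fuel leave their nitrogen behind.

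Poly-A enriched RNA of 16 livers from male mice was sequenced. Mice ate either a control amino acid diet or one low in isoleucine, 1 of the essential branched-chain amino acids. Feeding began at an age of 10 weeks and lasted 3 weeks, so that all were 13 weeks old. Livers were collected after a 16 h fast or after refeeding, whose length the labels do not give. The 4 groups were control fasted, low Ile fasted, control refed and low Ile refed, with n = 4 libraries each. All groups were kept near room temperature, and the labels give no strain and no allele or drug. Each group carries 1 number in its labels (1, 2, 7 or 9), and what that number stands for cannot be told apart from the group. The labels do not say outright that the 4 libraries are 4 separate mice, so p-values rest on the spread between these libraries, whatever its source. The design asks what the low isoleucine diet does in each feeding state, and each diet also allows refed livers to be set against fasted ones.

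Totals ran from 24368656 to 34002955 expected counts a library, and the scarcest of the 10 genes, Nags, had at least 469 counts in each. Levels are given in CPM, the count relative to a library size scaled by TMM, which corrects for depth and composition. A difference is a log2 fold change with its standard error (SE), tested with edgeR's quasi-likelihood test. Its p is adjusted for the whole table by the Benjamini-Hochberg method, and the gene is said to pass at an adjusted p under 0.05. The sources used here do not give the genome build of the counts, and gene positions are those of GENCODE M21. The general hepatocyte markers summed to 84240.3 CPM or more in every library. Control refed library 4 stood apart from the rest. Its summed level of the 10 genes was 14306 CPM, the highest of the 16, against at most 8420 CPM in the other control refed libraries. Fasn, a lipogenic gene of the fed state, was at 62.2 CPM there, against 348 to 545 CPM in the other 3. Not every gene set this library apart. Among the nitrogen genes named below as moved by refeeding on both diets, Cad, Odc1 and Slc25a22 were within the range of those 3. Slc7a2, Got1, Slc25a12 and Slc1a4 were above it. The 8 feeding markers, which hold genes of both states, summed to 3691 CPM there, the lowest of 16. On the axis of largest variation over all genes tested, this library lay on the refed side. It was at 13.7, the other 3 control refed libraries at 29.7 to 35.8 and the fasted libraries at -36.4 to -25.4. Kupffer cell markers summed to 543 CPM there against at most 383 CPM in the other 3, endothelial markers to 379 against 229.9 CPM and stellate markers to 603 against 321 CPM, each the highest of 16, while its pericentral hepatocyte markers had the lowest sum of 16. Of 7 marker lists for cells other than hepatocytes 5 were highest in this library, and no marker was at 0 in all libraries. In the other 3 groups the Kupffer cell sums ran from 223 to 485 CPM. The part of these differences in the results was not tested, and values without this library are given beside the results it moved. The library was singled out in part by its level of the 10 genes. Tests of these genes without it are therefore not independent of that choice and are given as a description. In bulk tissue, fewer cells of a type and less RNA per cell cannot be told apart.

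Per kilobase of exon, Cps1, Ass1 and Arg1 were the most abundant of the 10 genes. Mean levels over the 16 libraries, in CPM per kb, were 887 ± 239.8 (SD) for Cps1, 811 ± 243 for Ass1 and 570.4 ± 117 for Arg1. Cps1 and Ass1 lay within each other's spread. Glul followed at 269.95 ± 49.8 and Asl at 100.1 ± 29.0 CPM per kb. Below them Otc at 77.8 ± 13.2, Slc25a13 at 76.4 ± 14.7, Gls2 at 61.9 ± 17.5 and Slc25a15 at 61.9 ± 11.6 CPM per kb could not be ordered beyond their spread. Nags, whose product N-acetylglutamate switches Cps1 on, was lowest at 12.3 ± 3.65 CPM per kb.

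The carrier Slc25a13 (citrin, ENSMUSG00000015112, chr6:6041218-6217173, minus strand) was lower in refed than in fasted livers on both diets, and it was the only one of the 10 genes to pass on both. Citrin brings aspartate from the mitochondrion to the cytosol, where it supplies the second nitrogen of urea. On the control diet its level was 350.3, 339, 355 and 365 CPM in the fasted libraries and 246, 286, 249 and 250.3 CPM in the refed ones. On the low isoleucine diet the fasted libraries held 340.1, 279, 304 and 356 CPM and the refed ones 217, 239, 275 and 189.7 CPM. Every refed library lay below every fasted library of its diet, although on the low isoleucine diet the gap between the nearest libraries was small. The log2 fold change was -0.45 (SE 0.12, edgeR adjusted p = 0.0135) with the control diet and -0.47 (SE 0.12, edgeR adjusted p = 0.0079) with the low isoleucine diet. Over all genes tested, the share with refed libraries wholly below fasted ones was 9.62% for the control diet and 13.1% for the low isoleucine diet. Averaged over the diets, the change was -0.46 (SE 0.08, edgeR adjusted p = 0.000388), and it was -0.46 (SE 0.09, edgeR adjusted p = 0.000586) without control refed library 4. With library 4 left out, the control diet change was -0.44 (SE 0.13, edgeR adjusted p = 0.0247). Scaled by library size alone, it was -0.33 (edgeR adjusted p = 0.0555) and no longer passed, while the median over all genes moved from 0.01 to 0.14. The drop did not differ detectably between diets: the difference of the changes was -0.02 with a 95% interval of -0.37 to 0.32.

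The promoter of Slc25a13 is shown with that of Ass1, the cycle enzyme with the largest refeeding difference on the control diet once library 4 was set aside, and that of Otc, which gave no call for feeding. RefSeq (GRCm38.p6) gave a promoter for 6 of the 10 genes, from 250 bases before to 50 after the start. Capitals mark matches, on either strand, to the core of a cAMP response element, or CRE (TGACG), a C/EBP motif (TTGCNNAA), a forkhead motif (GTAAACA), a C/EBP-ATF composite (TGATGNAA) or a GC box (GGGCGG). Each is written 5′ to 3′ on the gene's own strand.
Slc25a13, chr6:6217124-6217423, minus strand: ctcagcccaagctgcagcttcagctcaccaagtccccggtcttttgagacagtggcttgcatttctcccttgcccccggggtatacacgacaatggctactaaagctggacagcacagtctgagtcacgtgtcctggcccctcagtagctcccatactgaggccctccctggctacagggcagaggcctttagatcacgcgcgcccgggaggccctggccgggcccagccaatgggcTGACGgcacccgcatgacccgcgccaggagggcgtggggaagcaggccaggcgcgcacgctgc
Ass1, chr2:31470020-31470319, plus strand: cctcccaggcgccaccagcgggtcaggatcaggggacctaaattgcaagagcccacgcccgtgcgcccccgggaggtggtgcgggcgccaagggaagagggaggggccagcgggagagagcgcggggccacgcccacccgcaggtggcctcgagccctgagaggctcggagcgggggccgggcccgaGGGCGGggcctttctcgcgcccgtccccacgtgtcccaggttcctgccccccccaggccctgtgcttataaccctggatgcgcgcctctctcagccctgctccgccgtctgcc
Otc, chrX:10252055-10252354, plus strand: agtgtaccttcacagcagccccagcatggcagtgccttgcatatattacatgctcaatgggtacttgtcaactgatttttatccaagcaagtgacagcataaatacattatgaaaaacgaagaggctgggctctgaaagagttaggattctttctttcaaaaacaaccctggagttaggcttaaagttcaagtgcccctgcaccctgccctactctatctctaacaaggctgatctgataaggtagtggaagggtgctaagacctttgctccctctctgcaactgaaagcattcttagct
Slc25a13 had 1 CRE core starting 13 bases before the start, Ass1 had 1 GC box starting 63 bases before it, and Otc had no match to these letters. Among 32851 RefSeq promoters of this length, 20.8% held the CRE core, 10.8% the C/EBP motif, 3.65% the forkhead motif, 3.97% the composite and 35.7% the GC box. Of the other promoters found, those of Glul and Slc25a15 held GC boxes and that of Nags held GC boxes and a CRE core. A match of letters is a description and not a binding site.

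On the control diet, refeeding lowered 1 of the 10 genes when all 16 libraries were used, Slc25a13, and raised 0 of 10, none of which had an unadjusted p under 0.05 in that direction. Over all genes tested, 8.2% passed as lower and 8.91% as higher in this comparison. Without control refed library 4, 7 of the 10 genes passed as lower and 0 as higher, where 9.13% of 15043 genes tested passed as lower and 9.11% as higher. The 7 were Cps1, Slc25a15, Slc25a13, Ass1, Asl, Arg1 and Gls2, which are enzymes or carriers of the cycle and the glutaminase that feeds it ammonia. The median log2 fold change of the 10 genes was -0.30 with all libraries and -0.54 without library 4, beside 0.01 and -0.01 over all genes tested. In that fit 3 of 10 endothelial markers and 3 of 10 stellate markers passed as lower too, and their part in the calls was not tested. The count thus depended on 1 library, whose values are given gene by gene. As that library was singled out in part by its high level of these genes, leaving it out favours lower refed values.

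Cps1 (ENSMUSG00000025991, chr1:67123026-67231259, plus strand) makes carbamoyl phosphate from ammonia and is the entry enzyme of the cycle. Its level was 4549, 5132, 5398 and 5191 CPM in the control fasted libraries and 2057, 3537, 3863 and 7198 CPM in the control refed ones. Library 4 was the highest and library 1 the lowest of all 16 libraries, so the group spanned the whole range. With all libraries the change was -0.28 (SE 0.28, edgeR adjusted p = 0.559), and without library 4 it was -0.69 (SE 0.22, edgeR adjusted p = 0.0408). Slc25a15 (ENSMUSG00000031482, chr8:22375551-22398597, minus strand), which carries ornithine into and citrulline out of the mitochondrion, had 365, 339, 406 and 405 CPM fasted and 221, 309.8, 239 and 445 CPM refed. The 3 other refed libraries lay below every fasted one and library 4 above them all. The change was -0.32 (SE 0.19, edgeR adjusted p = 0.278) with library 4 and -0.57 (SE 0.15, edgeR adjusted p = 0.0181) without it.

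Ass1 (ENSMUSG00000076441, chr2:31470207-31520672, plus strand) joins citrulline and aspartate to argininosuccinate. Its level was 2241, 2880.1, 2436 and 2648 CPM in the control fasted libraries and 1139, 1332, 1169 and 2899 CPM in the control refed ones. The first 3 refed libraries held 1213 ± 104 CPM (SD, n = 3), well below 2551 ± 275 CPM (SD, n = 4) in the fasted group, and library 4 was above all of the fasted group. With all libraries the change was -0.64 (SE 0.25, edgeR adjusted p = 0.0922), and without library 4 it was -1.08 (SE 0.16, edgeR adjusted p = 0.000374), the largest of the 10 genes. Asl (ENSMUSG00000025533, chr5:130011258-130029247, minus strand), which splits argininosuccinate into arginine and fumarate, had 577, 608, 549.7 and 762 CPM fasted and 329.7, 387, 275 and 554 CPM refed. Refed library 4 again came highest of its group and reached into the fasted range. The change was -0.69 (SE 0.25, edgeR adjusted p = 0.072), and -0.92 (SE 0.25, edgeR adjusted p = 0.0183) without library 4. Arg1 (ENSMUSG00000019987, chr10:24915221-24927484, minus strand) releases urea from arginine. It had 1386, 1570.4, 1351 and 1470.0 CPM fasted and 780.5, 1029, 907 and 1570.0 CPM refed, with library 4 level with the highest fasted library. The change was -0.43 (SE 0.19, edgeR adjusted p = 0.146), and -0.68 (SE 0.16, edgeR adjusted p = 0.0093) without library 4.

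Gls2 (ENSMUSG00000044005, chr10:128194457-128210004, plus strand), the liver-type glutaminase, releases ammonia from glutamine next to Cps1. Its level was 257, 279.5, 226 and 250.3 CPM in control fasted libraries and 170.0, 204, 162 and 393 CPM in control refed ones. Library 4 held the highest Gls2 level of all 16 libraries, while the other 3 refed libraries were below the whole fasted group. The change was -0.12 (SE 0.22, edgeR adjusted p = 0.785) with library 4 and -0.51 (SE 0.15, edgeR adjusted p = 0.0237) without it. Glul (ENSMUSG00000026473, chr1:153899944-153909723, plus strand), the glutamine synthetase of the pericentral cells, had 736, 737, 891 and 796 CPM fasted and 1042, 946, 828 and 552 CPM refed. Here library 4 was the lowest of all 16, whereas it was the highest of its group for 7 of the other 9 genes. The change was 0.09 (SE 0.17, edgeR adjusted p = 0.783), and 0.24 (SE 0.13, edgeR adjusted p = 0.224) without library 4.

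Otc and Nags gave no call for refeeding in either fit. Otc (ENSMUSG00000031173, chrX:10252305-10321024, plus strand), which joins carbamoyl phosphate to ornithine inside the mitochondrion, had 352, 376, 391 and 340.2 CPM in control fasted libraries and 306, 352, 405 and 413 CPM in control refed ones, and the fasted range lay inside the refed range. Its change was 0.02 (SE 0.14, edgeR adjusted p = 0.959), with a 95% interval of -0.28 to 0.32. Nags (ENSMUSG00000048217, chr11:102145513-102149477, plus strand) ranged from 17.2 to 56.7 CPM over the 16 libraries, with group means of 30.1 ± 8.48 (control fasted), 32.3 ± 11.2 (low Ile fasted), 36.0 ± 9.56 (control refed) and 41.7 ± 12.0 CPM (low Ile refed; SD, n = 4 each). Its refeeding change was 0.26 (SE 0.28, edgeR adjusted p = 0.617) on the control diet.

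**Figure D1:**
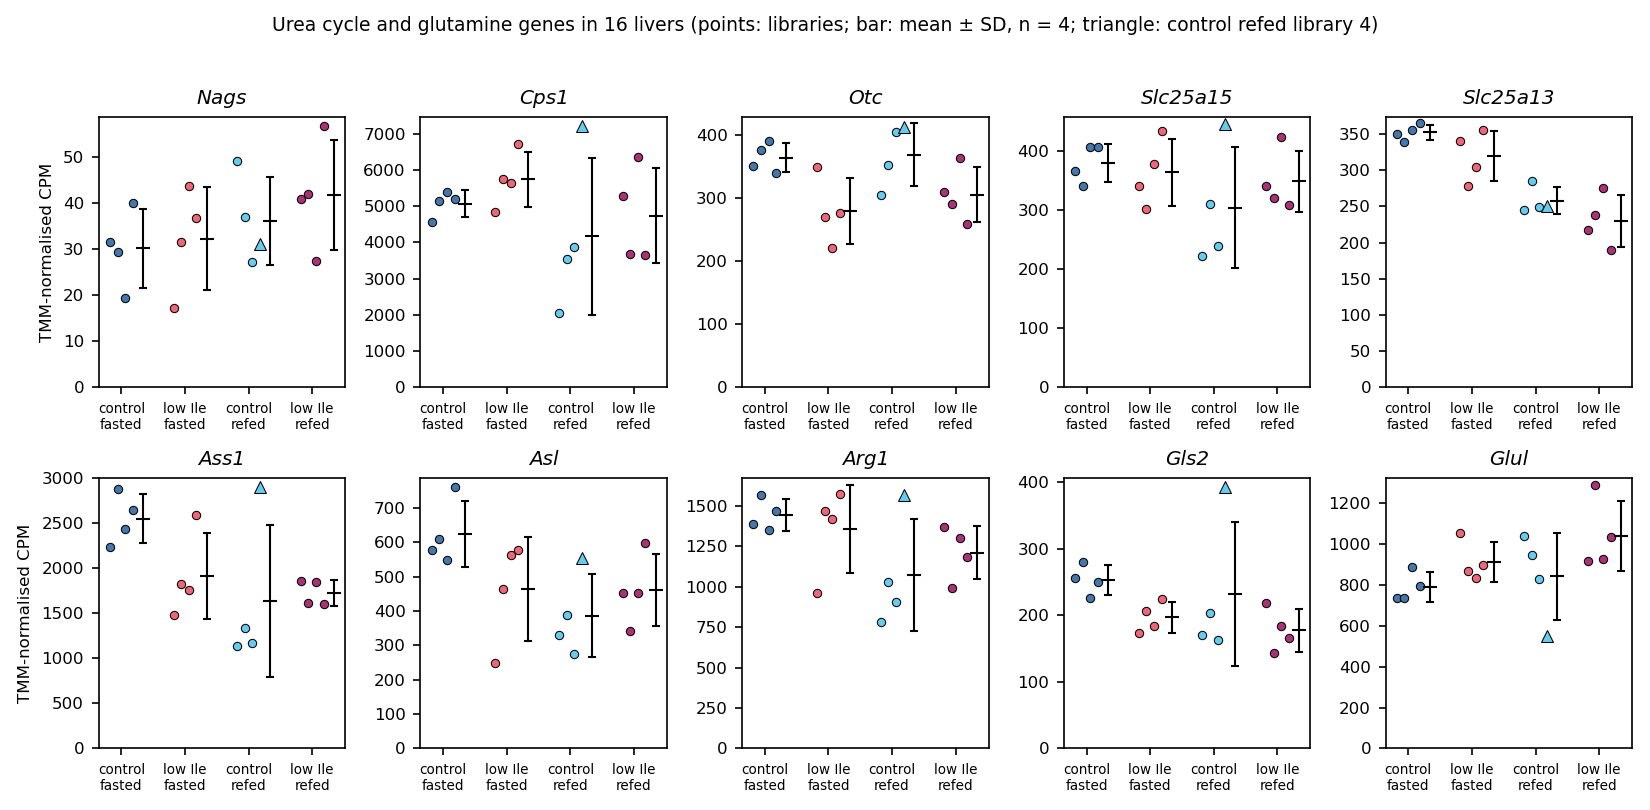
TMM-normalised CPM of the 10 genes (y axes, from 0) in the 4 groups, 1 point a library with the group mean and SD beside it (n = 4) and a triangle for control refed library 4. The triangle is the highest control refed point for Cps1, Otc, Slc25a15, Ass1, Asl, Arg1 and Gls2 and the lowest for Glul, and the refed points of Slc25a13 lie below the fasted points of the same diet.

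On the low isoleucine diet no cycle enzyme passed. Of the 10 genes 1 passed as lower, Slc25a13, and 0 as higher, where 11.8% of all genes tested passed as lower and 9.6% as higher. Without control refed library 4, which is not in either group but shares in the estimate of spread, it was again Slc25a13 alone, where 13.6% of genes passed as lower and 10.3% as higher. None of the other 9 genes had an unadjusted p under 0.05 in the first fit. Cps1 had 4848, 5736, 5642 and 6704 CPM fasted and 5274, 3675, 6346 and 3641 CPM refed, a change of -0.28 (SE 0.28, edgeR adjusted p = 0.529). Ass1 had 1486, 1827, 1757 and 2593 CPM fasted and 1857, 1613, 1843 and 1599 CPM refed, a change of -0.15 (SE 0.25, edgeR adjusted p = 0.729). For both genes the groups overlapped. Asl had 249, 463, 562 and 578 CPM fasted and 452, 340.3, 452 and 598 CPM refed, and its change of -0.01 (SE 0.25, edgeR adjusted p = 0.988) had a 95% interval of -0.54 to 0.52. Arg1 had 962, 1469, 1420.4 and 1575 CPM fasted and 1367, 989.7, 1302 and 1185 CPM refed, a change of -0.16 (SE 0.19, edgeR adjusted p = 0.604). The intervals leave room for changes of either sign in all 4 of these genes. Slc25a15 held 340.4, 301, 377 and 434 CPM fasted and 340.4, 319.6, 424 and 308 CPM refed, and Gls2 173, 206, 184 and 225 CPM fasted and 219, 143, 184 and 166 CPM refed. Neither separated the groups. Glul held 1053, 869, 836 and 896 CPM fasted and 918, 1288, 929 and 1034 CPM refed, a change of 0.19 (SE 0.17, edgeR adjusted p = 0.469).

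Averaged over both diets, refeeding again lowered Slc25a13 alone when all libraries were used, where 16.5% of genes passed as lower. Without control refed library 4, Cps1, Slc25a15, Slc25a13, Ass1, Asl, Arg1 and Gls2 passed as lower, 7 of 10 against 18.7% of genes. The comparisons on the 2 diets use different libraries, but the averaged one uses those of both.

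**Figure D2:**
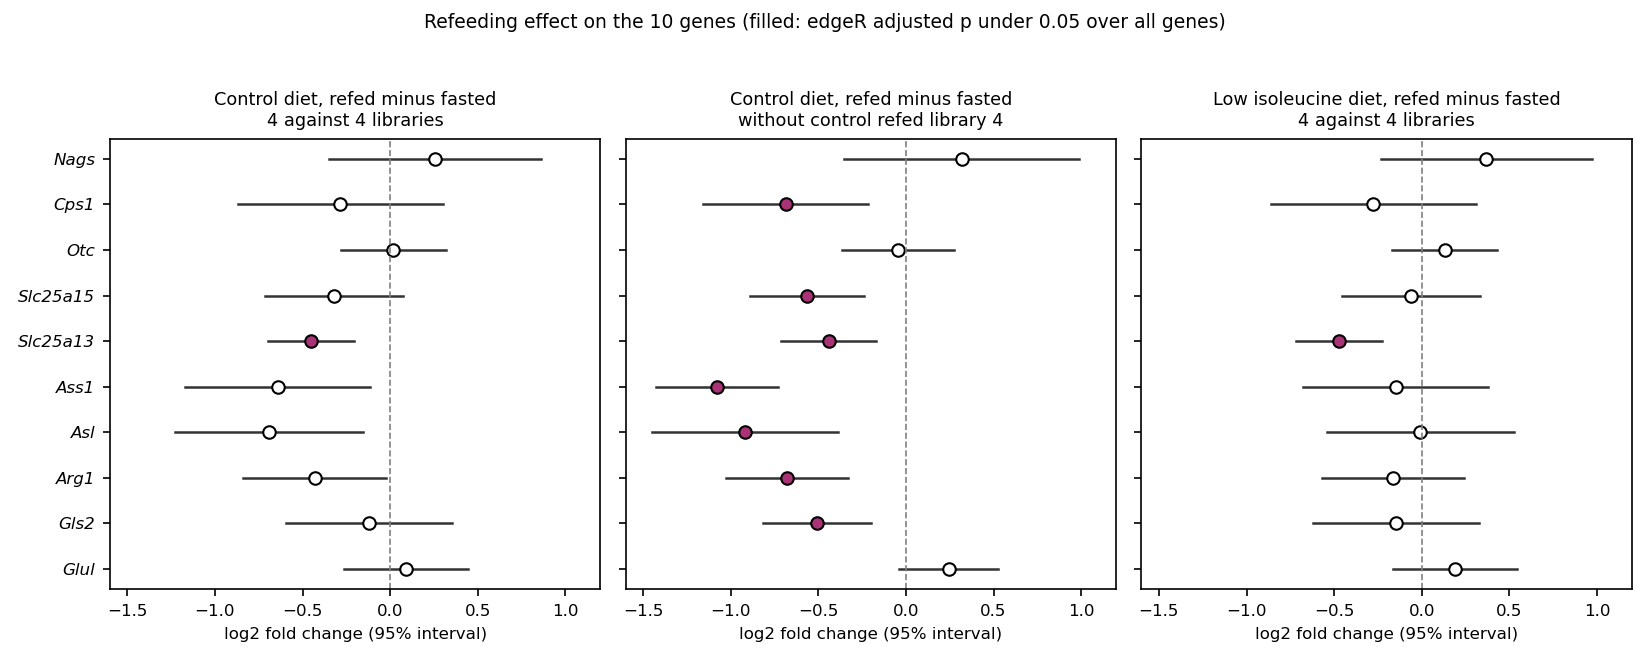
Log2 fold change of the 10 genes, refed minus fasted, with 95% intervals (bars) in 3 panels: control diet with all libraries, control diet without control refed library 4, and low isoleucine diet. Filled points passed an edgeR adjusted p of 0.05 over all genes tested, which holds for Slc25a13 in each panel and for 7 genes in the middle one.

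Whether refeeding acted differently on the 2 diets was tested as an interaction. With all libraries 0 of the 10 genes passed by edgeR, as did 0% of all genes tested. None of the 10 genes had an unadjusted p under 0.05, and limma-voom and DESeq2 also called 0 of 10, while DESeq2 called 35 genes elsewhere in the table. The estimates were 0.49 (SE 0.35, edgeR adjusted p = 0.924) for Ass1 and 0.68 (SE 0.36, edgeR adjusted p = 0.825) for Asl, with 95% intervals of -0.25 to 1.24 and -0.07 to 1.44. Each is the low isoleucine change minus the control change given above, and both were positive. Without control refed library 4 the Ass1 interaction was 0.91 (SE 0.22, edgeR adjusted p = 0.286), with an unadjusted p of 0.000693. Asl came to 0.90 (SE 0.33, edgeR adjusted p = 0.54), Arg1 to 0.50 (SE 0.22, edgeR adjusted p = 0.609) and Slc25a15 to 0.49 (SE 0.21, edgeR adjusted p = 0.598). These 4 genes had an unadjusted p under 0.05 in that fit, and 0 of the 10 passed after adjustment, as did 0% of all genes. The feeding changes of the 10 genes are thus not shown to differ between diets, whatever the number of calls on each.

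The low isoleucine diet moved none of the 10 genes past the threshold in either feeding state. In fasted livers edgeR called 0 of 10, where 0.771% of all genes passed. Without control refed library 4 it called 0 of 10, against 1.48% of genes. In refed livers it called 0 of 10 with all libraries, where 0.174% of genes passed, and 0 of 10 without library 4, where 0.592% did. Averaged over feeding states it called 0 of 10, against 1.51% of genes with all libraries and 3.14% without library 4. The unadjusted p was under 0.05 for Otc in fasted livers, for none of the 10 in refed livers, and for Otc, Gls2 and Glul in the average. With library 4 left out it was under 0.05 for Otc, Ass1 and Gls2 in fasted livers, for Cps1, Ass1, Arg1 and Slc25a15 in refed livers and for Cps1 and Otc in the average. Limma-voom called 0 of 10 in all of these, and DESeq2 0 in each feeding state and 1, Otc, in the average.

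By unadjusted p in the average over feeding states with all libraries, Otc, Gls2 and Glul came first of the 10, but the order differed within feeding states and without library 4. Otc had 349, 271, 222 and 276 CPM in the low Ile fasted libraries and 310.3, 291, 364 and 259 CPM in the low Ile refed ones, against the control values above. The low isoleucine groups had the lower mean in both states and overlapped the controls in both. The diet difference was -0.38 (SE 0.14, edgeR adjusted p = 0.289) in fasted livers, -0.27 (SE 0.14, edgeR adjusted p = 0.563) in refed livers and -0.33 (SE 0.10, edgeR adjusted p = 0.118) in the average. By DESeq2 the averaged difference had an adjusted p of 0.0404, and without low Ile fasted library 1, the highest of its group, the edgeR adjusted p was 0.0385. Over the 26 alternatives tried the adjusted p ran from 0.0385 to 0.22, and Otc passed in these 2 only.

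Gls2 was lower in every low Ile fasted library than in every control fasted one, a separation that 4.4% of all genes tested also showed in that direction. The gap was small, with the nearest libraries at 224.8 CPM (low Ile) and 225.7 CPM (control). Kupffer cell markers summed to 374 to 485 CPM in control fasted and 232 to 337 CPM in low Ile fasted libraries, with 0 of 13 passing by edgeR and 7 at an unadjusted p under 0.05. In the same comparison 1 of 5 erythroid markers passed as higher and all 5 had an unadjusted p under 0.05. Of these 5 differences 4 were positive and 1 was negative, at -1.10. The erythroid sums were 198 to 252 CPM on the control and 246 to 636 CPM on the low isoleucine side. Of 11 tested lymphocyte markers 1 passed as lower and all 11 differences were negative, with sums over 13 markers of 13.7 to 16.3 and 6.75 to 13.95 CPM. The passing genes were Hbb-bs and Cd4, named after their values were seen. In refed livers 0 of 13 Kupffer cell markers passed and all 13 differences were negative, or 12 with control refed library 4 left out. Averaged over feeding states 1 of 13 passed as lower by edgeR, where 1.51% of genes passed, and 11 had an unadjusted p under 0.05. Their median was -0.50. With that library left out these were 1 and 8, with a median of -0.40. In the average 1 erythroid and 1 lymphocyte marker also passed as lower. The part of these markers was not tested. The Gls2 diet difference was -0.36 (SE 0.22, edgeR adjusted p = 0.625) in fasted livers and -0.39 (SE 0.22, edgeR adjusted p = 0.602) in refed livers, and with control refed library 4 left out the refed value was -0.02 (SE 0.14, edgeR adjusted p = 0.978). Averaged over feeding states it was -0.37 (SE 0.16, edgeR adjusted p = 0.28) with all libraries, with a 95% interval of -0.71 to -0.04, and -0.19 (SE 0.10, edgeR adjusted p = 0.369) without library 4, where the interval of -0.40 to 0.01 took in 0. The Glul difference was 0.21 (SE 0.17, edgeR adjusted p = 0.743) in fasted livers. In refed livers it was 0.31 (SE 0.17, edgeR adjusted p = 0.577) with library 4 and 0.14 (SE 0.13, edgeR adjusted p = 0.805) without it. The averaged Glul difference was 0.26 (SE 0.12, edgeR adjusted p = 0.33) with all libraries, with an interval of 0.01 to 0.51, and 0.17 (SE 0.09, edgeR adjusted p = 0.413) without library 4, where the interval of -0.02 to 0.36 took in 0. Neither gene passed in either fit. Of the 18 pericentral markers, the zone that Glul marks, 0 passed for diet in either feeding state, with medians of 0.15 in fasted and 0.29 in refed livers beside 0.01 and -0.01 over all genes. In the average 2 of the 18 passed as higher, Lgr5 and Cyp2c37, and 8 had an unadjusted p under 0.05, with a median of 0.22. With library 4 left out these were 2 and 5, with a median of 0.14. Their part in the Glul values was not tested. The ratio of Glul to Gls2, both per kb, ran from 2.76 to 4.13 in control fasted libraries and from 4.17 to 6.36 in low Ile fasted ones. In control refed libraries it was 6.41, 4.85, 5.34 and, in library 4, 1.47, and in low Ile refed ones it ran from 4.38 to 9.44. The fasted groups did not overlap in this ratio, which is given as a description with no test, since it was formed after both genes' values were seen.

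The 95% intervals of the diet difference of the other genes in fasted livers were -0.41 to 0.76 for Cps1, -0.94 to 0.12 for Ass1, -0.96 to 0.10 for Asl, -0.50 to 0.32 for Arg1, -0.50 to 0.71 for Nags, -0.46 to 0.33 for Slc25a15 and -0.39 to 0.10 for Slc25a13, all on the log2 scale. Low Ile fasted library 1 had the lowest fasted level of Ass1, Asl and Arg1. In refed livers the diet difference of Ass1 was 0.08 with all libraries and 0.50 (SE 0.16, edgeR adjusted p = 0.198) without control refed library 4. The other changes given next are also from all libraries to the fit without control refed library 4. Cps1 went from 0.19 to 0.57 (SE 0.22, edgeR adjusted p = 0.306), and its averaged difference from 0.18 to 0.37 (SE 0.15, edgeR adjusted p = 0.231). For Arg1 the refed difference went from 0.18 to 0.40, for Slc25a15 from 0.20 to 0.43 and for Asl from 0.25 to 0.46. None of these 5 genes passed.

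In the authors' deposited table of the diet comparison in fasted mice, which lists 14211 genes, 91 had a Benjamini-Hochberg value under 0.05, and in that for refed mice 39 did. None of the 10 genes was among them. The authors' deposited table gives Otc in fasted mice a log2 fold change of -0.39 and a Benjamini-Hochberg value of 0.267.

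An isozyme and sister carriers of the 10 genes were looked at by name. Slc25a12, the other aspartate and glutamate carrier, was far scarcer than Slc25a13, with 16.9 ± 0.741 CPM in control fasted livers (SD, n = 4), and it also fell on refeeding. Its change was -0.60 (SE 0.12, edgeR adjusted p = 0.0023) with the control diet and -0.66 (SE 0.12, edgeR adjusted p = 0.000812) with the low isoleucine diet. Arg2, the mitochondrial arginase, and Slc25a2, another ornithine carrier, had at most 12 and 8 counts in a library and were not tested.

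Other genes that bring nitrogen to the cycle or use it elsewhere were taken as a list of 42, of which 37 could be tested. Of these 37, refeeding raised 6 and lowered 7 on the control diet, where 8.91% of all genes tested passed as higher and 8.2% as lower. On the low isoleucine diet it raised 8 and lowered 5, where 9.6% and 11.8% of all genes did. The median log2 fold change of the list was -0.11 and 0.21, beside 0.01 and 0.02 over all genes tested. Among those lowered on both diets, Slc7a2, which takes up arginine and other cationic amino acids, changed by -1.83 and -1.76 (edgeR adjusted p = 0.0032 and 0.00314). Got1, which makes aspartate in the cytosol, changed by -1.62 and -1.41 (edgeR adjusted p = 0.0075 and 0.013). Slc25a22, a mitochondrial glutamate carrier, changed by -1.48 and -1.26 (edgeR adjusted p = 0.00133 and 0.00309). Slc25a13 changed by less than each of these 3. With library 4 left out, 5 of 38 tested genes of the list rose and 6 fell on the control diet, where 9.11% and 9.13% of genes did, and 8 rose and 8 fell on the low isoleucine diet, where 10.3% and 13.6% did.

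Cad, Odc1 and Slc1a4 were higher in refed livers of both diets. Cad, which uses glutamine for pyrimidines, changed by 1.61 and 1.25 (edgeR adjusted p = 0.000217 and 0.000988). Odc1, which turns ornithine into putrescine, changed by 1.09 and 1.34 (edgeR adjusted p = 0.00143 and 0.000217). The neutral amino acid carrier Slc1a4 changed by 1.76 and 2.15, at levels of 1.31 to 14.4 CPM (edgeR adjusted p = 0.00426 and 0.000766). Aldh18a1, which starts proline and ornithine synthesis from glutamate, passed on the low isoleucine diet, at 1.34 (SE 0.44, edgeR adjusted p = 0.0367). The diet moved 0 of the 37 genes in either feeding state by edgeR, with an unadjusted p under 0.05 for 7 of them in fasted and 1 in refed livers.

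**Figure D3:**
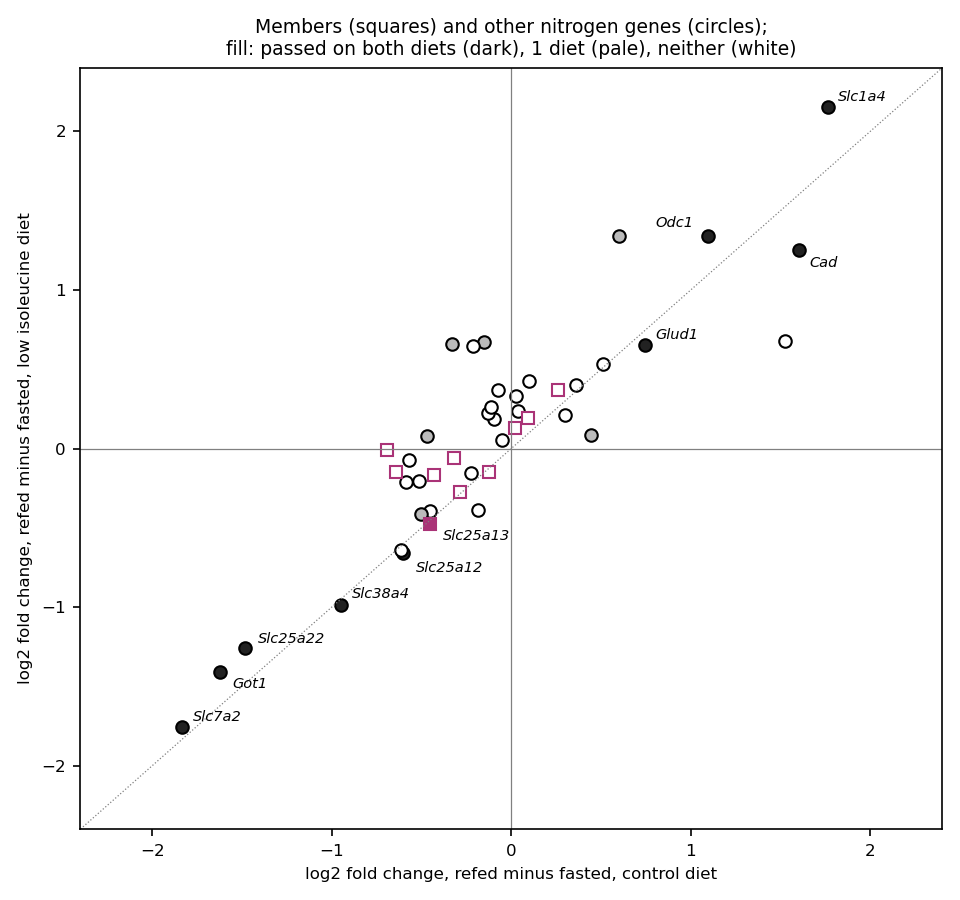
Log2 fold change, refed minus fasted, on the control diet (x axis) and the low isoleucine diet (y axis) for the 10 genes (squares) and 35 of the 37 other nitrogen genes (circles), dark where edgeR passed on both diets and pale where it passed on 1. Slc25a13 is the filled square, near its sister carrier Slc25a12, and the other 9 squares are open.

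Regulators of fasting and of nitrogen metabolism were taken as a list of 18, all tested. The shares of all genes given for the nitrogen list apply here and to the zone markers too. Refeeding raised 2 and lowered 6 on the control diet, and raised 2 and lowered 7 on the low isoleucine diet. With library 4 left out, 1 rose and 6 fell on the control diet. Ppargc1a, a fasting coactivator, changed by -1.76 and -1.81 (edgeR adjusted p = 0.00156 and 0.00102). Ppara, a receptor for fatty acids, changed by -1.31 and -1.77 (edgeR adjusted p = 0.000386 and 2.3e-05), and Cebpb by -1.25 and -1.12 (edgeR adjusted p = 0.0102 and 0.0141). Atf4, which answers amino acid shortage, went up by 0.73 and 1.34 (edgeR adjusted p = 0.00468 and 2.4e-05). In control refed library 4 the regulators summed to the lowest level of 16 while the 10 genes summed to the highest.

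Since Glul marks pericentral and the cycle enzymes mark periportal cells, markers of both zones were read beside them. Of 14 periportal markers, 3 fell and 0 rose with refeeding on each diet. With library 4 left out, 5 fell on each diet. The markers that fell included Pck1, an enzyme of gluconeogenesis, at -1.99 and -1.86 (edgeR adjusted p = 0.00146 and 0.00177), and Sds, which breaks down serine, at -1.90 and -1.20 (edgeR adjusted p = 0.00274 and 0.0279). Of 18 pericentral markers, 3 rose and 0 fell on the control diet (5 and 0 without library 4), and 5 rose and 1 fell on the low isoleucine diet (6 and 1 without library 4). Slc1a4 is on this list too. Lgr5, a receptor gene of the Wnt pathway, rose by 0.76 and 0.88 (edgeR adjusted p = 0.019 and 0.00527). Summed periportal markers ran from 15699.8 to 17123 CPM in control fasted and 11150.2 to 12991 CPM in control refed libraries, where those of library 4 (12631 CPM) were within the range of the other 3. Pericentral markers in library 4 summed to 6403 CPM, against at most 13186 CPM in the other 3. Glul in that library, at 552 CPM, was also the lowest of the 16. The part of these markers in the values of Glul and the cycle genes was not tested.

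**Figure D4:**
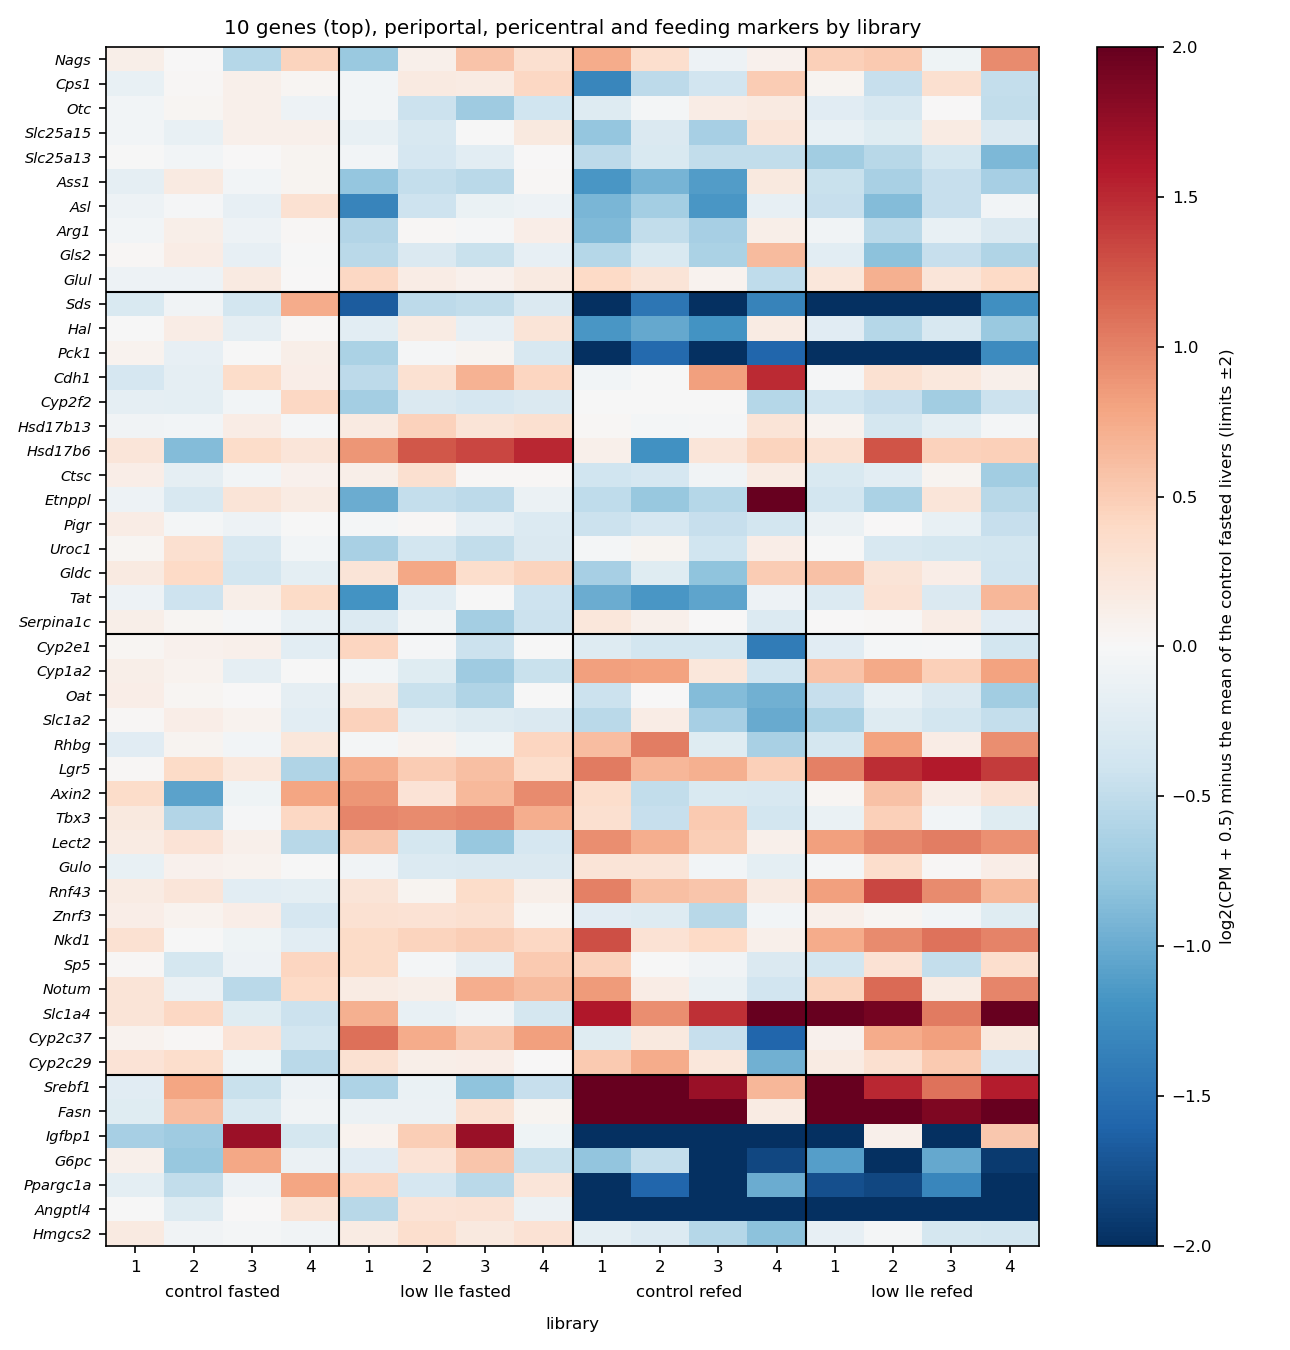
Log2(CPM + 0.5) minus the mean of the control fasted libraries, by library (columns) for the 10 genes and then for 14 periportal, 18 pericentral and 7 feeding markers (rows), with colours limited at ±2. Control refed libraries 1 to 3 are blue for Ass1, Asl and Arg1. Library 4 of that group is light red for Cps1 and Gls2, near white for Ass1, blue for Glul and Cyp2e1 and pale for Fasn.

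The genes whose profile over the 16 libraries was most like that of 3 of the set were found by the smallest root mean square difference of centred log2 CPM, among 6780 genes of at least 10 CPM. Nearest to Cps1, whose own SD was 0.45 on the log2 scale, were Snx13 at 0.23, Zfp644 at 0.24, Cth at 0.24, Cd38 at 0.24 and Heg1 at 0.26. For Glul, with an SD of 0.27, they were Cnpy2 at 0.15, Sod1, Ssbp3 and Vkorc1 at 0.16 and Apoa2 at 0.17. For Gls2, with an SD of 0.36, they were Fat1 and Tut4 at 0.21, Nt5dc3 and Med1 at 0.23 and Sat1 at 0.24. The 10 genes themselves were left out of the candidates, so how closely they follow each other was not examined here. The profiles share libraries and depth, so they are given as a description.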

How the data were processed

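The authors deposited a table of RSEM expected counts per gene for the 16 libraries, per the file headers. Per the labels' protocols, libraries were stranded and poly-A enriched, and lanes were merged before expression was estimated. The aligner is not given in the sources used here, nor is the genome build or annotation. The submitters' processing notes name R 3.5.3, edgeR and limma. The 2 tables of diet comparisons that the authors deposited give log2 values (fold change and CPM), a score (F), the p-value and its Benjamini-Hochberg value, per the file headers.

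Rounding made the expected counts whole (10.2% were not). Software was edgeR 4.0.16 as the main tool, with DESeq2 1.42.0 and limma 3.58.1 as alternatives, run under R 4.3.3. Of 51912 identifiers 51633 matched a symbol. Low genes were removed with filterByExpr, with 10 as the minimum count and 15 as the minimum total. Counts were TMM-scaled, and the robust quasi-likelihood fit estimated 1 mean a group from all 16 libraries. Adjusted p-values are Benjamini-Hochberg over all genes tested. A 95% interval gives the uncertainty of a difference of group means, estimated from the spread between libraries under this model. Each edgeR SE was derived from the log2 fold change and the F value of its test. Gene positions and merged exon lengths come from GENCODE M21, matched by identifier, and promoters from RefSeq GRCm38.p6, matched by symbol. The main edgeR fit was tested on simulated counts, only for feeding on the control diet. The other comparisons, DESeq2 and limma-voom were not tested in this way.

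The 10 genes and the gene lists were chosen with earlier results of these data known. All 10 genes were counted in each comparison, but the text does not print each gene's value in every one. The text names isozyme partners, and up to 6 passing genes of the nitrogen, regulator and zone lists with the largest change per comparison. It also names the 5 nearest profiles of Cps1, Glul and Gls2, leaving out provisional names and the 10 genes themselves. Some genes covered by this rule or the lists are counted but not reported here by name. The alternatives were other scalings, filters and tests, only the groups compared, a non-robust fit, a block by the letters in the labels, and each library left out in turn. Libraries with the same letters did not deviate together (mean correlation 0.018 over 24 pairs, from -0.32 to 0.32), so the letters were not taken to pair mice. Libraries of 1 group differed by far more than counting noise, so none was the same library sequenced again. This comparison cannot tell whether they came from separate mice.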

Additional observations from a re-analysis of the deposited data

Results flagged for a closer look

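The highest or lowest library of each group of 4 was compared with its nearest neighbour for the 10 genes, 40 groups in all, where chance sets about 1 group in 20 apart. In 2 groups, no more than that rate, a library stood apart by Dixon's criterion. Ass1 in control refed library 4 was 2899 CPM, with the next library at 1332 CPM. For no other of the 10 genes did library 4 stand apart by this criterion. Slc25a13 in control refed library 2 was 285.8 CPM, with the next library at 250.3 CPM, and it still lay below every control fasted library. The first goes with the other values of control refed library 4 given above, and its part in the Ass1 results is shown by the values with and without it.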

How the results depend on the processing

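The diet counts in fasted livers and in refed livers and the interaction count were 0 of 10, and the low isoleucine feeding count was 1 of 10, under every alternative run. For feeding on the control diet the count of 1 was 0 with library size alone (Slc25a13 -0.33, edgeR adjusted p = 0.0555), 3 with the replicate block by label letters (Slc25a13, Ass1 and Asl), 2 by the DESeq2 Wald test and 2 by limma-voom. It ran from 1 to 7 when each library was left out in turn, with 7 without control refed library 4 and 2 without low Ile fasted library 1. For the diet averaged over feeding states the count of 0 was 1 by the DESeq2 Wald test and 0 to 1 when each library was left out, with Otc called without low Ile fasted library 1. For feeding averaged over diets the count of 1 was 1 to 7 when each library was left out, with 7 without control refed library 4 and 3 without low Ile fasted library 1 (Slc25a13, Asl and Arg1). The replicate block changed no other call, and 6 of 16 libraries correlated best with their own letters. The cause of these changes was not tested.

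Library size alone moved the median of all genes on the control diet from 0.01 to 0.14 and the share of higher among called genes from 52.1% to 71.7%, and on the low isoleucine diet that share from 44.9% to 64.5%. Averaged over diets it went from 49.9% to 69.0%. DESeq2 called 371 genes against 115 for diet in fasted mice, 179 against 26 in refed mice, 603 against 226 in the average and 35 against 0 for the interaction. With only the groups compared in the fit, 193 and 3 genes were called in fasted and refed mice.

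Differences that were not called turned sign as follows, with the cause not tested. With each library left out in turn, the averaged diet difference ran from -0.0195 to 0.155 for Arg1, -0.164 to 0.0142 for Asl and -0.257 to 0.0385 for Ass1. The fasted diet difference ran from -0.17 to 0.0429 for Arg1, -0.0816 to 0.308 for Nags and -0.16 to 0.0181 for Slc25a15. The low isoleucine feeding change ran from -0.215 to 0.116 for Asl, -0.253 to 0.0317 for Ass1 and -0.17 to 0.0361 for Slc25a15. The refed diet difference ran from -0.0583 to 0.496 for Ass1 and -0.0391 to 0.572 for Cps1. The interaction ran from -0.217 to 0.3995 for Cps1, -0.164 to 0.344 for Gls2, -0.0681 to 0.217 for Glul, -0.0959 to 0.296 for Nags and -0.12 to 0.0596 for Slc25a13. The control diet feeding change ran from -0.506 to 0.0158 for Gls2, -0.0268 to 0.245 for Glul and -0.0436 to 0.0983 for Otc. With upper-quartile scaling the value was 0.0354 for the Asl low isoleucine feeding change and 0.0126 for the Slc25a13 interaction. With library size alone the value was 0.0929 for the Asl low isoleucine feeding change, -0.0633 for the Cps1 interaction, 0.0056 for the Gls2 averaged feeding change, 0.0498 for the Gls2 control diet feeding change and 0.0429 for the Slc25a15 low isoleucine feeding change. With the replicate block the value was 0.0102 for the Asl low isoleucine feeding change and 0.0491 for the Gls2 interaction. With limma-voom the value was 0.0398 for the Asl low isoleucine feeding change and 0.0668 for the Gls2 interaction. With DESeq2 size factors the value was -0.0031 for the Cps1 interaction. With no low count filter the value was -0.0001 for the Cps1 interaction. With the DESeq2 Wald test the value was -0.0029 for the Cps1 interaction.

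With 4 libraries a group the 95% intervals differed in width between genes, from -0.39 to 0.10 for Slc25a13 to -0.50 to 0.71 for Nags in the fasted diet comparison. The scarcest gene, Nags, had at least 469 counts in every library. The labels do not say what sets control refed library 4 apart, and they give no cage, batch or litter.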
